A study of Mus musculus with 8 samples.

Results

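The DNA replication machinery genes are 43 mouse genes that encode the proteins which license, fire and copy replication origins, with the factors that protect the fork and set replication timing. They were chosen by name and by the position of each gene: the timing score was read at the midpoint of the gene on mm10, in each of the 4 deposited timing profiles. All 43 were found in the RefSeq gene table and all 43 had a score, out of 49214 genes with a score, of which 21523 were protein-coding. By role, 15 belong to origin licensing, 12 to origin firing, 12 to the replication fork, and 4 to timing control and fork protection. The scores say when the DNA of each gene was copied during S phase and say nothing of how much of its RNA or protein was made.

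Replication timing was measured by Repli-seq in mouse embryonic stem cells, either with YY1 present or depleted of YY1, a DNA-binding transcription factor. BrdU was given for 2 h, S phase cells were separated into an early and a late fraction by DNA content, and the labelled DNA of 40000 cells per fraction was sequenced. An early and a late fraction stand behind each profile, so 8 samples gave 2 control profiles and 2 dTAG profiles. The comparison asks whether genes replicate earlier or later once YY1 has been removed. The dTAG group was collected 2 days after dTAG treatment, and the control group is labelled only as control, with no vehicle named. dTAG is a small molecule approach that degrades a protein carrying a degradation tag, so in such a line the control cells carry the tagged protein as well. The alleles, the clone and whether the numbered replicates came from separate cultures are not stated, so the p-values measure the spread between these profiles, which may be technical.

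DNA is copied once per cell cycle because the work is split in time. In G1 the origin recognition complex, Cdc6 and Cdt1 load the MCM helicase as an inactive double ring, and in S phase the Dbf4-Cdc7 kinase and a set of firing factors add Cdc45 and GINS to switch it on. Polymerases, clamp, flap nuclease and ligase then build the new strands, and Timeless, Tipin, Clspn and Rif1 protect forks or decide which regions wait until late S phase. Many of these genes are switched on together at the entry into S phase by E2F transcription factors, and embryonic stem cells, which spend much of their cycle in S phase, express them strongly.

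The deposited score is signed and was read as higher for earlier replication. Its formula and log base are not stated, so values are in score units with no fold changes. Gene density was taken as the number of protein-coding genes within 500 kb, the gene itself counted. The 6700 protein-coding genes with at least 25 had a median control score of 3.88, against -2.26 for the 1104 with 3 or fewer. The loci of stem cell genes such as Pou5f1 and Nanog were above 0 in 7 of 7 cases, with a median control score of 3.23, and those of genes of other cell types in 7 of 8 cases, with a median of 1.70. The lowest stem cell locus scored 2.98, above 7 of the 8 loci of other cell types and below Cdx2 at 3.57. The 2 replicate numbers were deposited on different distributions, with profile means of 0.20 for control 1 and dTAG 1 and -0.20 for control 2 and dTAG 2. For dTAG 1 the title letters and the fraction labels name opposite samples as early. Its scores correlated with those of control 1 at r = 0.992, with control 2 at 0.972 and with dTAG 2 at 0.970 across 49214 genes, which are not independent replicates, so the profile runs in the same direction as the others.

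Nearly all of the replication genes lay in early-replicating DNA. Their median control score was 3.66, with an interquartile range of 3.19 to 4.02, and 42 of 43 scored above 0 in all 4 profiles. Across the genome 68.3% of all genes and 77.5% of protein-coding genes did so. A control score above 3 was reached by 35 of 43 members, or 81.4%, against 54.5% of protein-coding genes. The median member stood at percentile 70.6 among all genes and at 60.6 among protein-coding genes, so it was early on both scales and closer to the middle of the protein-coding genes. Of the 43, 39 lay above a score of 2. The other 4 were Orc5, Cdc7 and Rpa3, between 0 and 2, and Orc4, the 1 late member.

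**Figure D1:**
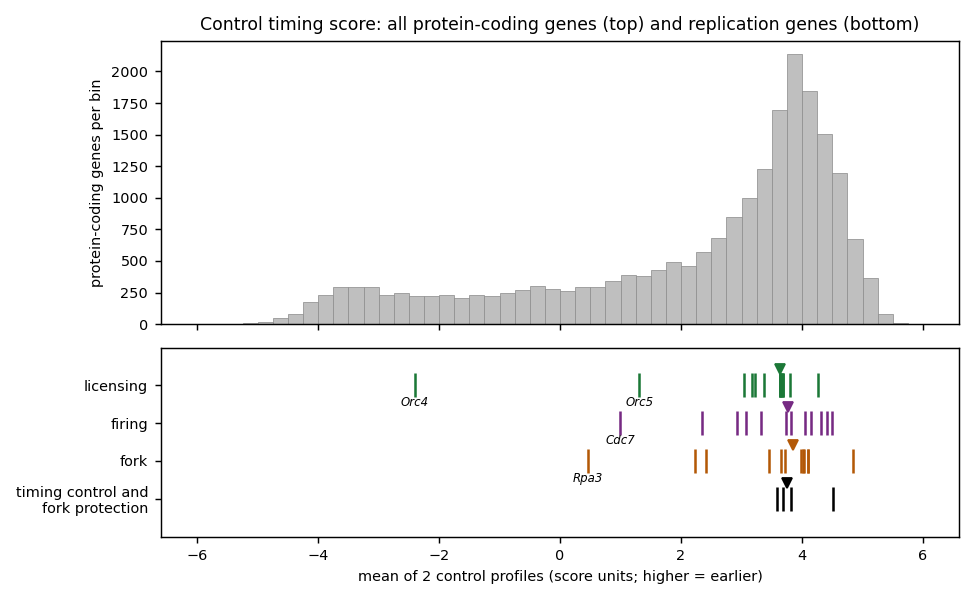
The upper panel counts protein-coding genes by their mean control score (score units, higher is earlier), and the lower panel marks each replication gene by group, with a triangle at the group median. The group medians of 3.64 to 3.85 fall near the peak of all protein-coding genes, and Orc4, Rpa3, Cdc7 and Orc5 stand apart to the left.

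The groups of genes had close medians. Origin licensing had a median control score of 3.64 (quartiles 3.19 and 3.67), origin firing 3.77 (3.04 and 4.19), the fork 3.85 (3.20 and 4.04), and timing control and fork protection 3.75 (3.66 and 3.99). The spread inside each group was wider than the distance between the medians, and the groups overlapped. The members are not replicates of a group, so no test was made between them. By control mean, licensing held both the latest member, Orc4, and a tight cluster of MCM genes. The fork group held the earliest by control mean, Pold1, and the second latest, Rpa3.

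Within licensing, the origin recognition complex marks the DNA sites where helicases will be loaded, and its 6 subunit genes were the most scattered. Orc1, Orc2, Orc3 and Orc6 had mean control scores of 3.36 to 3.80. Orc5, an ATPase subunit on chr5:22486480-22550338, scored 1.74 and 0.88 in the controls and 1.30 and 1.01 in the dTAG profiles. Orc4, another ATPase subunit on chr2:48902824-48952902, was the only member below 0. It scored -2.50 in control 1, -2.31 in control 2, -2.22 in dTAG 1 and -3.36 in dTAG 2. The dTAG 2 profile was the lowest of the 4, and the groups overlapped. Its control mean of -2.40 ± 0.13 (SD, n = 2) placed it at percentile 9.32 among protein-coding genes. Subunits of 1 complex were thus copied at widely different times.

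Orc4 lay on a steep slope, and the lowest control mean within 500 kb of it was -4.27, at -477.9 kb. Its neighbour Acvr2a, an activin receptor gene at -69.2 kb, had a control mean of -2.65, while the midpoint of Mbd5, a methyl-CpG-binding domain gene at 206.7 kb, scored 0.30 and that of Epc2, a chromatin regulator, 2.12. The control mean crossed 0 at 187 kb from the Orc4 midpoint and reached 2.39 at 432 kb. The difference between dTAG and control was 0.27 within replicate 1 and -1.05 within replicate 2, so the pair of replicate numbers gave opposite signs.

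The loaders and their inhibitor were early. Cdt1, which delivers the helicase to ORC, scored 4.71 and 3.81 in the controls and 4.71 and 3.59 after dTAG. It was the earliest licensing gene by control mean, but in control 2 alone Mcm4 (3.96) and Orc6 (3.85) scored higher. Cdc6, the ATPase that joins ORC for loading, had a control mean of 3.68 ± 0.38 (SD, n = 2) and a dTAG mean of 3.62 ± 0.79. Gmnn encodes geminin, which binds Cdt1 to stop a further round of loading, and it scored 3.29 and 3.04 in the controls against 3.25 and 3.46. In each of these genes the control and dTAG scores overlapped.

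The 6 MCM genes, whose products form the ring-shaped helicase, had the narrowest range of any role with over 1 gene. They are on 5 chromosomes, and their control means ran from 3.04 at Mcm3 to 3.68 at Mcm7. Mcm7 scored 3.77 and 3.60 in the controls and 3.92 and 3.53 in the dTAG profiles. Mcm3 scored 2.95 and 3.13 against 2.69 and 2.97. All 6 lay within 100 kb of a local maximum of the control profile. None had its groups apart.

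Promoter sequences were compared as a feature separate from timing. RefSeq windows on GRCm38.p6, from 250 bases before to 50 after the annotated start, were at hand for 32 of the 43 members, in 40 windows. They were searched on both strands for letters that E2F factors favour (TTTGGCGC, TTTCGCGC, TTTCCCGC and TTTGCCGC) and for a YY1 core (AANATGGCG). The E2F letters were present in 14 of 40 member windows, or 35%, against 2.26% of all 32851 windows. They were in 3.01% of the windows of genes with a control score above 3. Of 57 further replication genes, 48 had windows, and 25% of these windows (13 of 52) held the letters. By gene they were found in 8 of 13 licensing genes, 2 of 7 firing genes, 3 of 10 fork genes, and 1 of 2 genes of timing control and fork protection, Clspn. Member windows also held more CpG dinucleotides, with a median of 21 against 7 over all windows and 13 for genes with a control score above 3, but 27.5 for the further replication genes, and the E2F letters themselves contain CpG. The YY1 letters were in 1 member window, that of Mcm5, or 2.5%, against 2.38% of all windows. A match describes these letters and is not evidence of binding, and a window without one says only that the letters are not in it.

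The licensing promoters below are shown because each holds the E2F letters, in capitals; in Mcm5 the first capitals are the YY1 letters on the opposite strand, and the second run is a pair of overlapping E2F matches. The Mcm5 window is chr8:75109259-75109558, Orc1 is chr4:108579204-108579503 and Cdc6 is chr11:98907901-98908200, all on the plus strand, written 5′ to 3′.
Mcm5: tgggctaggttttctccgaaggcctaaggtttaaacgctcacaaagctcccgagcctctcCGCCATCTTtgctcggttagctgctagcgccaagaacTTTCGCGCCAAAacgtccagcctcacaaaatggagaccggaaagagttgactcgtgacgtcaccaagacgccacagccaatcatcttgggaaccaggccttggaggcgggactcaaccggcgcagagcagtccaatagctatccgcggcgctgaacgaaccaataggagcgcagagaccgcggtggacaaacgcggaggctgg
Orc1: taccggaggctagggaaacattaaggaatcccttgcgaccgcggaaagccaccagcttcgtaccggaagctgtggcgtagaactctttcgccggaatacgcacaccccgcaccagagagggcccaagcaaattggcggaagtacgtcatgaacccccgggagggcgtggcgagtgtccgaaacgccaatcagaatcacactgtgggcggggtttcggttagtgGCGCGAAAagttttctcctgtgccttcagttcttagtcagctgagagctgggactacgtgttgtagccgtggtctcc
Cdc6: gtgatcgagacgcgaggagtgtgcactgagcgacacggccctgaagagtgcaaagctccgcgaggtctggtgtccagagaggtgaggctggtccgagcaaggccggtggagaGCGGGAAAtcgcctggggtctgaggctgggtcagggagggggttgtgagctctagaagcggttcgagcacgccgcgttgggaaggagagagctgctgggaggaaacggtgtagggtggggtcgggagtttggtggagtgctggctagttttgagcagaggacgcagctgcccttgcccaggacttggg
In Mcm5 the YY1 letters begin at position -190 and the E2F letters at -153 from the start. In Orc1 the E2F letters begin at -27, and in Cdc6 at -138. These 3 genes had control means of 3.63, 3.65 and 3.68, while the 8 licensing genes with the letters ran from 3.04 at Mcm3 to 4.26 at Cdt1. Their differences after dTAG were -0.10, 0.22 and -0.06, with the groups overlapping in each.

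Origin firing begins with the Dbf4-Cdc7 kinase, which phosphorylates the loaded helicase, and both of its genes were on the later side of the list. Cdc7, the catalytic subunit on chr5:106964315-106984440, scored 1.26 in control 1, 0.72 in control 2, 1.35 in dTAG 1 and 0.29 in dTAG 2. The highest and the lowest of these were both dTAG profiles, so the groups overlapped. The gene sat on a broad plateau between early and late DNA, with control scores from 0.56 to 1.89 within 500 kb. Dbf4, the regulatory subunit, scored 2.89 and 2.96 in the controls and 2.66 and 2.64 after dTAG. Both dTAG profiles were below both controls at Dbf4, by 0.28 on average (SE 0.31).

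The 10 firing factors had a median control score of 3.93. Ticrr, also called Treslin, which brings Cdc45 to the helicase, was the earliest by control mean. It scored 5.01 and 3.97 in the controls and 4.51 and 4.01 after dTAG. In control 2 alone, Cdc45 (4.09) and Recql4 (4.06) scored higher than Ticrr. Mtbp, the partner of Ticrr, was the latest at 2.47 and 2.22 against 2.32 and 1.96. These partners in 1 complex had control means of 4.49 and 2.34. Recql4, a helicase needed for initiation, and Cdc45, which completes the active helicase, had control means of 4.41 and 4.32. The 4 GINS subunits ran from 3.08 at Gins1 to 4.15 at Gins2.

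Gins2 had the largest upward difference within a replicate number. It scored 4.46 and 3.83 in the controls and 5.51 and 3.78 in the dTAG profiles, so only dTAG 1 was high. The difference was 1.05 within replicate 1 and -0.06 within replicate 2. Cdt1, on the same chromosome and 1985.4 kb away, had a difference of -0.0029 within replicate 1. Topbp1, the scaffold that links Ticrr to GINS, scored 3.49 and 3.15 in the controls and 3.54 and 3.52 after dTAG, with both dTAG profiles above both controls by a mean of 0.21 (SE 0.33). Mcm10, which helps the helicase start moving, had a control mean of 3.82 and a difference of -0.09.

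The fork genes had control means above 3, apart from Rpa3, Lig1 and Prim2. Pold1, the catalytic subunit of the lagging-strand polymerase on chr7:44532744-44548815, was the earliest member by control mean. It scored 5.62 in control 1, 4.07 in control 2, 5.18 in dTAG 1 and 3.64 in dTAG 2. In control 2 alone, Clspn (4.62), Pola2 (4.10) and Cdc45 (4.09) scored higher than Pold1. Each dTAG profile of Pold1 was lower than the control of its own number, by 0.45 and 0.43. The 2 controls had a mean of 4.85 ± 1.10 (SD), and the groups overlapped. Pole, the leading-strand catalytic subunit, had a control mean of 4.01 and a difference of 0.13.

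Polymerase alpha and primase start each new fragment with a short RNA and DNA primer. Their 4 subunit genes Pola1, Pola2, Prim1 and Prim2 had control means of 3.71, 4.09, 3.99 and 2.42. Pola2 scored 4.09 and 4.10 in the controls and 4.75 and 3.15 in the dTAG profiles, the closest control pair of the list beside one of the widest dTAG pairs. Prim2, the large primase subunit on chr1:33453808-33669808, is 216 kb long and spanned a timing slope. Its control score was 1.44 at the lower coordinate end and 3.48 at the higher end, so its midpoint score of 2.42 stands for neither. Pola1 on the X chromosome is longer, at 328 kb, yet its control scores varied by 0.57 along the gene. Only Orc3 and Mtbp also varied by more than 0.5 along the gene, and the median member varied by 0.05.

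Clamp, flap and ligation genes act on the finished fragments. Fen1, which trims the flaps, scored 4.22 and 3.84 in the controls and 4.17 and 3.90 after dTAG. Lig1, the ligase that seals the nicks, was later at 2.55 and 1.93 against 2.56 and 2.52. Pcna, the sliding clamp, scored 3.41 and 3.51 in the controls and 3.24 and 3.02 after dTAG, both below both controls, by a mean of 0.33 (SE 0.32).

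RPA coats single-stranded DNA at the fork as a complex of 3 subunits, and their genes again differed. Rpa1 scored 4.18 and 4.02 in the controls and 4.96 and 4.01 after dTAG. Rpa2 had a control mean of 3.64 ± 0.21 (SD, n = 2) and a dTAG mean of 3.69 ± 0.63. Rpa3, the smallest subunit on chr6:8255936-8259141, lay in DNA of intermediate timing with a control mean of 0.46 ± 0.12.

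The 4 genes of timing control and fork protection were all early. Rif1, which holds back late origins by recruiting a phosphatase that opposes the Dbf4-Cdc7 kinase, lies on chr2:52072815-52126769 and scored 3.70 in control 1, 3.49 in control 2, 3.67 in dTAG 1 and 3.88 in dTAG 2. The difference was -0.03 within replicate 1 and 0.39 within replicate 2, and the groups overlapped. Rif1 was thus copied early, and it is 3.17 Mb from late Orc4 on the same chromosome.

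Timeless, a fork protection subunit, scored 4.10 and 3.26 in the controls and 3.91 and 2.78 after dTAG, with a difference of -0.34. Its partner Tipin scored 4.23 and 3.41 against 4.39 and 3.24, with a difference of -0.0013. Clspn encodes claspin, the adaptor that carries the stalled-fork signal to the checkpoint kinase, and it scored 4.38 and 4.62 in the controls and 4.40 and 5.01 after dTAG, with a difference of 0.20. In Timeless and Tipin the replicate number separated the profiles more than the treatment did, and in none of the 3 were the groups apart. By Euclidean distance over the 4 profiles, the genes closest to Rif1 in score were Haus8 at 0.042, the pseudogene Stk19-ps1 at 0.054, Dmap1 at 0.061, the pseudogene Skiv2l-ps1 at 0.062 and Emc7 at 0.064.

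**Figure D2:**
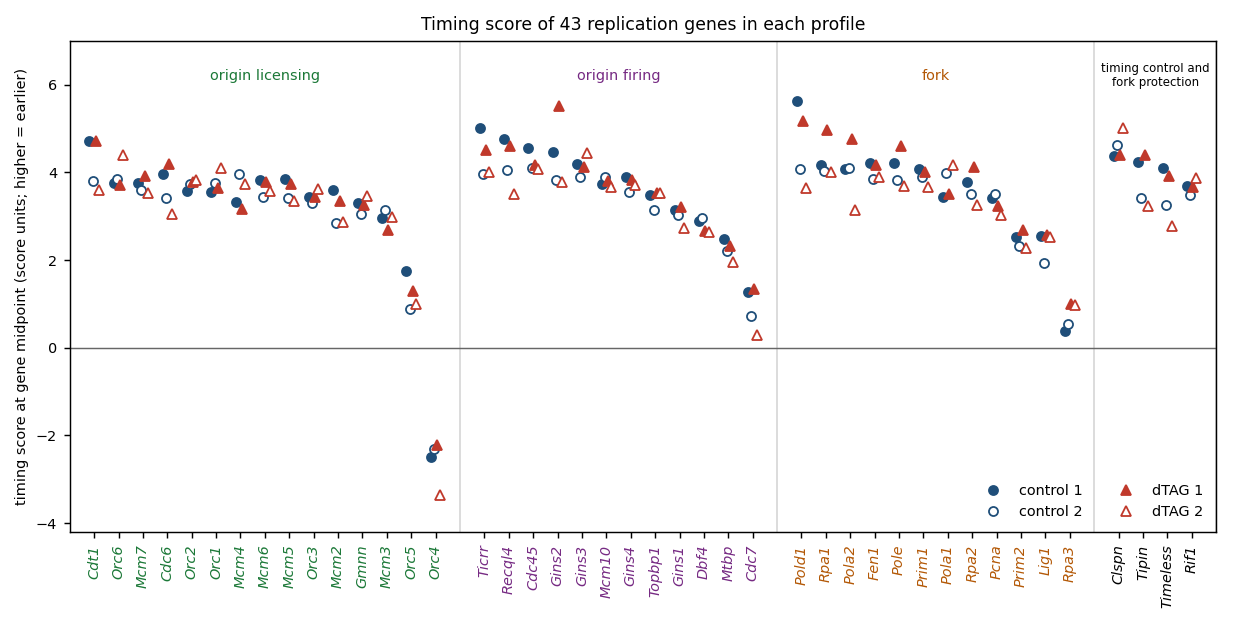
Each symbol is the timing score (score units, higher is earlier) of 1 replication gene in 1 profile, with circles for control, triangles for dTAG, filled for replicate 1 and open for replicate 2. All but Orc4 sit above 0 in all 4 profiles, and within most genes control and dTAG symbols are mixed.

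After dTAG, no member's difference from control passed the test. The median dTAG score was 3.72 and the median difference from control was -0.0013, against -0.0019 over all genes. The differences ran from -0.44 at Pold1 to 0.53 at Rpa3, with 21 above 0 and 22 below. Within replicate 1 the median difference was -0.0029 and within replicate 2 it was -0.06. The sign was the same in both replicate numbers for 20 of 43 members: 8 were higher in both, where 28.3% of all genes were, and 12 were lower in both, where 29.6% of all genes were. limma called 0 of the 43 members at an adjusted p under 0.05, and 0% of all genes. At an unadjusted p under 0.05 it called 0 members and 0.835% of all genes. The lowest unadjusted limma p of a member was 0.15, at Rpa3, and every adjusted p was 0.9999. The standard error of a member's difference was 0.31 to 0.76 in this group-only model, with a median of 0.36. It includes the offset between replicate numbers. With replicate number added to the model as a block, the median standard error was 0.19. A difference the size of the median one, 0.18, was below both medians and was not detectable. An exact permutation test of 2 against 2 profiles cannot go below p = 0.33.

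By group, the median difference was -0.06 for licensing, -0.14 for firing, 0.05 for the fork, and 0.09 for timing control and fork protection. Firing was the 1 group whose median had the same sign within both replicate numbers, -0.07 and -0.15. Licensing was -0.04 and 0.01, the fork 0.11 and -0.08, and timing control and fork protection -0.0052 and 0.11. Of the 12 firing genes, 8 had a difference below 0 and 4 above, where 24731 of all 49214 genes were below. Within both replicate numbers 4 of the 12 were lower, where 29.6% of all genes were.

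**Figure D3:**
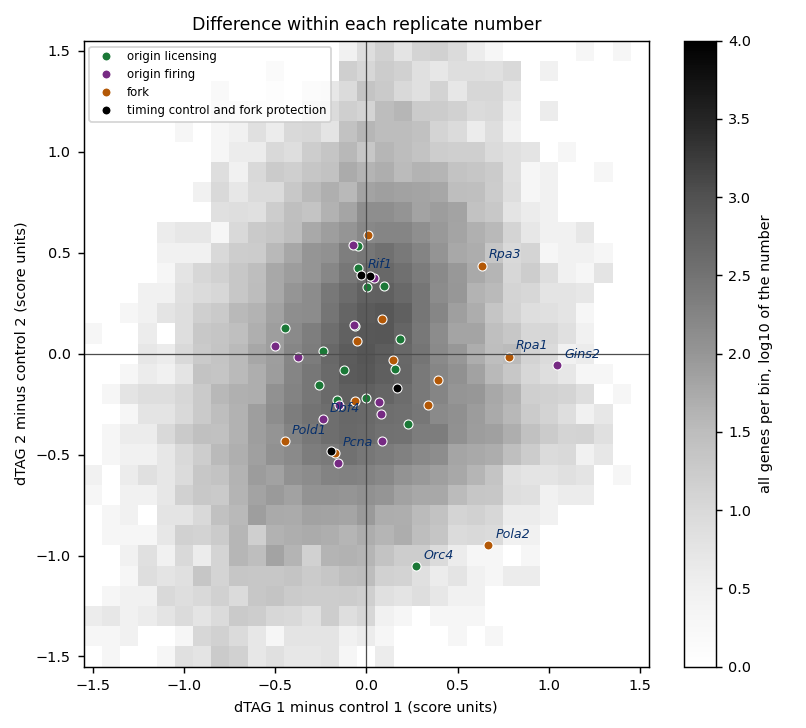
Each coloured dot is a replication gene at its dTAG minus control difference within replicate 1 (horizontal) and within replicate 2 (vertical), in score units, over a grey map of how many of all genes fall in each bin (log10). Most members lie in the central cloud of all genes; Rpa3 lies up and to the right at 0.63 and 0.44, and Gins2, Pola2 and Orc4 have opposite signs in the 2 numbers.

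The groups were apart, with the dTAG profiles both above or both below the controls, in 6 of 43 members, or 14.0%, and in 18.9% of all genes. Orc2, Orc3, Topbp1 and Rpa3 had both dTAG profiles above, as 10.5% of all genes had, and Dbf4 and Pcna had both below, as 8.32% had. The members' share is near the background and is no result about them. Orc2 scored 3.58 and 3.74 in the controls and 3.77 and 3.82 after dTAG, and Orc3 scored 3.44 and 3.29 against 3.44 and 3.62. When all 4 profiles were put on 1 common distribution there were again 6 such members, but only Pcna and Topbp1 were among them in both cases. Rpa3 was the 1 member both apart and shifted by at least 0.5, which 6.2% of all genes were in either direction and 2.65% upward.

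At Rpa3 the controls scored 0.37 and 0.55 and the dTAG profiles 1.005 and 0.98. Both dTAG profiles were higher, by 0.53 on average (SE 0.31), by 0.63 within replicate 1 and by 0.44 within replicate 2. limma did not call it (adjusted p 0.9999). On 1 common distribution the difference was 0.54, but control 2 at 0.79 was then above dTAG 1 at 0.76, so the groups overlapped. The difference extended beyond the gene. In the scores as deposited, both dTAG profiles lay above both controls without a break over 870 kb. This stretch ran from 7.99 to 8.86 Mb of chromosome 6, with a mean difference of 0.47 and a highest of 0.64. On the common distribution it would be broken at Rpa3 itself, where the groups overlapped. Smoothing joins neighbouring positions, and the lengths of such stretches elsewhere are not given here. The midpoints of 6 protein-coding genes fall in this stretch, Col28a1, Mios, Rpa3, Umad1, Glcci1 and Ica1. They are above the controls by the way the stretch was defined. The region is the falling side of an early domain: Asns, the asparagine synthetase gene at -573.4 kb, had a control mean of 2.49, Ica1 -1.61 and Nxph1 -4.36.

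The Rpa3 promoter is shown because this was the member with the largest difference. It is the window chr6:8259092-8259391 on the minus strand, written 5′ to 3′, and neither the E2F nor the YY1 letters are in it, so it has no capitals.
Rpa3: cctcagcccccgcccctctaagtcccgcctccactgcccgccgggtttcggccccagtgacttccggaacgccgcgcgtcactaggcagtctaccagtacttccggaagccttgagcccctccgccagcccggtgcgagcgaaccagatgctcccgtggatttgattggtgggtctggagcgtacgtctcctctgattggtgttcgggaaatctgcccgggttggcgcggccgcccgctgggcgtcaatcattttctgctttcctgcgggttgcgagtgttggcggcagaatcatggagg

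**Figure D4:**
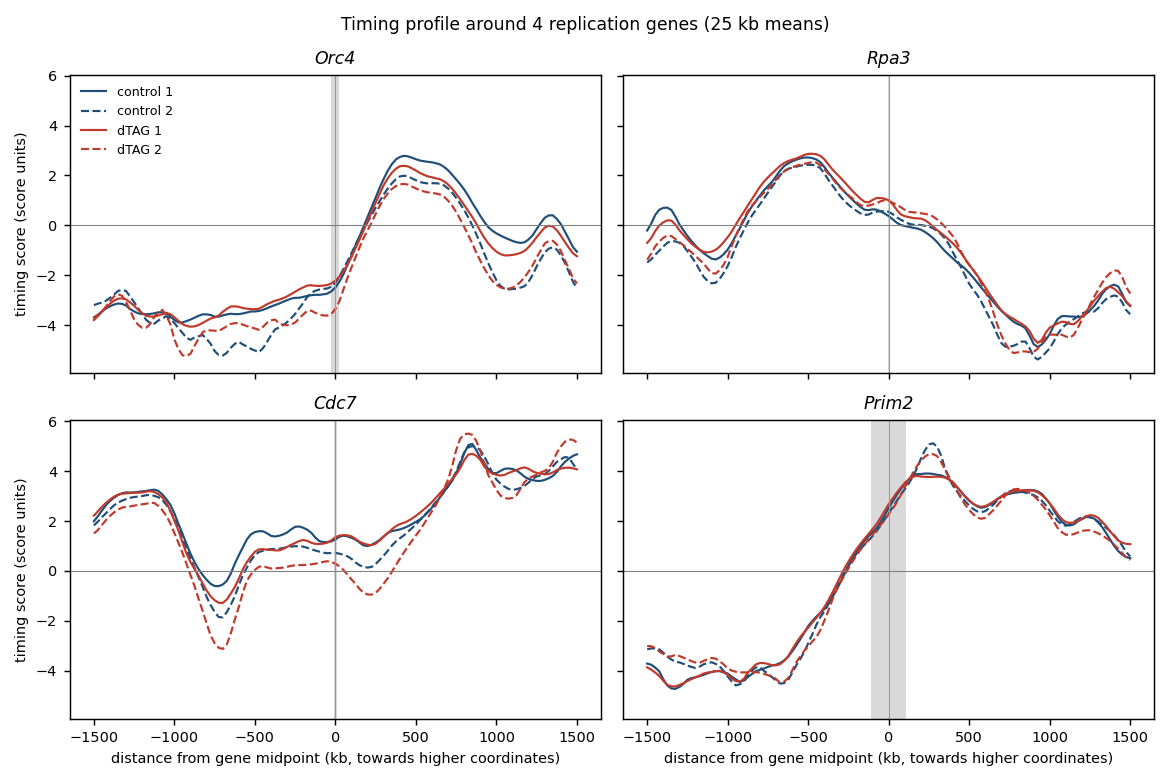
Timing score (score units) in 25 kb means against distance from the gene midpoint (kb) for Orc4, Rpa3, Cdc7 and Prim2, with control in blue, dTAG in red, replicate 1 solid, replicate 2 dashed and the gene shaded. Orc4 sits on a rise to above 0, and Rpa3 on a falling slope where both red lines lie above both blue lines. Cdc7 sits on a plateau and Prim2 across a slope from 1.44 to 3.48.

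Many members lay near a local maximum of the control profile, whatever its height. Their median distance to the nearest one was 89.1 kb, against 118 kb for protein-coding genes and 132 kb for all genes. Of the 43, 26, or 60.5%, were within 100 kb, against 43.4% of protein-coding genes. These shares were not limited to genes of like score. Among 57 further replication genes the median distance was 76.2 kb, with 64.9% within 100 kb. The median slope of the profile at a member was 2.09 score units per Mb, against 3.36 for protein-coding genes. The steepest were at Orc3, Prim2, Lig1 and Orc4, with 10.2, 9.59, 8.04 and 7.62. The median number of protein-coding genes within 500 kb, the gene itself counted, was 13 for a member and 16 for protein-coding genes. They are spread over 15 chromosomes, with 6 on chromosome 8 and 5 each on chromosomes 2 and 5. The closest pair, Timeless and Prim1, is 219.9 kb apart. The name under which the scores were deposited carries a size label before the word Loess, and its meaning is not stated. How far the authors' smoothing reaches was not tested, so scores at such distances may not be independent.

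A list of 57 further replication genes, among them polymerase accessory subunits, clamp loaders, chromatin assembly factors, S phase kinases and enzymes of nucleotide supply, had similar levels. Their median control score was 3.71, and 55 of 57 were above 0 in all 4 profiles. limma called 0 of them, with 0 at an unadjusted p under 0.05. The groups were apart in 10, with dTAG above in 4 and below in 6, and 2 were also shifted by at least 0.5. Over all genes 18.9% were apart and 6.2% also shifted, so neither count stands above the background. Asf1a, a histone chaperone, scored 0.22 and -0.50 in the controls and -0.52 and -1.48 after dTAG, a difference of -0.86. Mcm9, a helicase paralog whose midpoint is 19.9 kb away, scored 0.38 and -0.36 against -0.35 and -1.28, and its groups overlapped. These neighbours are at 1 locus.

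Pold2, the accessory subunit that partners Pold1, scored 5.17 and 4.94 in the controls and 4.56 and 4.45 after dTAG, with both dTAG profiles below by a mean of 0.55. A difference below 0 was found in 6 of 6 polymerase accessory genes, against 24731 of all 49214 genes. It was also found in 7 of 7 genes of Okazaki fragment processing, RNA removal and topoisomerases. Scores were lower within both replicate numbers in 5 of the 6 and 2 of the 7, where 29.6% of all genes were. The median difference of the 7 was 0.09 within replicate 1 and -0.30 within replicate 2. The other roles of this list had differences of both signs. The groups were apart in 3 polymerase accessory genes, Pold2, Pold3 and Pole2, and in 0 of the 7. Over all genes, dTAG was below both controls in 8.32%. Rrm2, the small subunit of ribonucleotide reductase, had a difference of -0.38 with both dTAG profiles below. Wdhd1, which tethers polymerase alpha to the helicase, had a difference of 0.38 with both above. None of these differences was called by limma (adjusted p 0.9999).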

How the data were processed

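Repli-seq profiles of mouse embryonic stem cells were analysed, 2 control and 2 dTAG, from 8 samples grouped by their descriptions. The submitters' processing notes name Bowtie2, SAMtools, bedtools and mm10, with versions not given in the sources used. The authors deposited a signed timing score per 5 kb position; per the file headers and name it was Loess smoothed and quantile normalized. Formula, log base and direction are not stated. Tests had been planned for log2 ratios, so differences are in score units. Of 526745 positions, 514245 had all 4 scores, and 4 with only some were left out. Depth is unknown, so precision rests on the 2 profiles a group.

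Each gene of the RefSeq table (GRCm38.p6) took the score of the position within 2.5 kb of its midpoint. All 49214 genes were fitted by lmFit and eBayes of limma 3.58.1 (R 4.3.3; group only, 2-sided, Benjamini-Hochberg, threshold 0.05), after a test on simulated data. Other steps ran in Python 3.11.15 with pandas 2.3.3. Groups were called apart when the dTAG profiles were both above or both below the controls. A local maximum was the highest position within 100 kb on either side, and slopes were taken over 100 kb on either side. Per-profile values were given for Rif1, Timeless, Tipin and Clspn, for the earliest and latest gene of each role, and for those with the highest and lowest moderated statistics, groups apart or the widest differences between replicate numbers, the last chosen after their values were seen. The 5 other replication genes with the most extreme statistic were named as well. The members and lists were chosen with earlier results of these data known. Alternatives changed the scored position, the scaling, the model and the profiles used.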

Additional observations from a re-analysis of the deposited data

How the results depend on the processing

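The limits are 2 profiles a group, smoothing that joins neighbouring positions, and replicate numbers on different distributions. The count of 42 members above 0 was 42 under each alternative run, and limma called 0 members under each. With the replicate block limma called 0 of 49214 genes, and 4594 at an unadjusted p under 0.05. Among the members it called none, and only Rpa3 had an unadjusted p under 0.05 (adjusted p 0.494). Of the 57 further replication genes it called none, with 3 at an unadjusted p under 0.05, Asf1a, Mcm9 and Pold2, where the model without the block had 0. Same-numbered profiles deviated together (r = 0.683 over 49214 genes). Their sorted scores were the same to within 5.2e-05 for number 1 and 1.1e-04 for number 2. The sorted scores of dTAG 2 with the sign turned matched those of dTAG 1 to within 1.2e-04. The labels do not say what the samples of a number share. The replicate block with trended and robust variance called 402 genes, 72 of them higher, and no member, and leaving out dTAG replicate 2 called 7 genes. Leaving out profiles, for counts and control medians, and 1 common distribution for the shifted count were chosen after seeing the data.

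With 1 profile left out, fewer profiles need to be apart, and 19 to 34 members had their groups apart in place of 6, and 2 to 12 in place of 1 were also shifted by 0.5. The shifted count was 3 at a threshold of 0.25 and 0 on 1 common distribution. Leaving out a profile moved the median difference of all genes by 0.20, -0.23, -0.20 and 0.21 for control 1, dTAG 1, control 2 and dTAG 2, and differences are given relative to that shift. The median difference of all members was -0.0578 within replicate 2 and -0.0718 to 0.0740 with a profile left out. For licensing it was 0.0134 within replicate 2 and -0.1167 to 0.1689, for firing -0.0699 within replicate 1 and -0.1382 to -0.0030, and for timing control and fork protection -0.0052 within replicate 1 and -0.0567 to 0.0860. With 1 control, the control median was 3.42 to 3.58 for licensing, 3.70 to 3.81 for firing and 3.83 to 3.93 for the fork. For timing control and fork protection it was 3.45 without control 1 and 4.17 without control 2, the widest move of the 4 groups. The order of the group medians thus depended on the control used. The members' median percentile of 70.6 was 60.6 among protein-coding genes and 85.7 among 50 kb windows.

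Single differences changed sign within replicate 1 at Rif1 (-0.0302), Tipin (0.1666), Orc6 (-0.0431), Orc4 (0.2718), Gmnn (-0.0451), Cdc7 (0.0846) and Fen1 (-0.0498), and within replicate 2 at Mcm7 (-0.0746), Ticrr (0.0397), Rpa1 (-0.0150) and Prim2 (-0.0301). With a profile left out, sign changes gave ranges of -0.1331 to 0.5173 at Rif1, -0.6708 to 0.0197 at Timeless, -0.3453 to 0.3696 at Tipin, -0.3065 to 0.7394 at Clspn, -0.0793 to 0.1614 at Mcm7, -0.5595 to 0.1689 at Mcm3, -0.5475 to 0.0856 at Ticrr, -0.3004 to 0.8163 at Orc6, -0.4375 to 0.2430 at Cdt1, -0.1249 to 0.5298 at Gmnn, -0.4733 to 0.1497 at Cdc7, -0.0697 to 0.1088 at Fen1, -1.0127 to 0.1321 at Pold1, -0.0350 to 0.1496 at Prim2 and -0.0484 to 0.8286 at Wdhd1. Rpa3 stayed above 0, from 0.2436 without control replicate 1 to 0.8249 without control replicate 2. The cause of these changes was not tested.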

Other observations

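The gene of the depleted protein, Yy1 on chr12:108792945-108820148, was itself early, at percentile 93.4 among protein-coding genes. It scored 4.51 in control 1, 4.86 in control 2, 4.498 in dTAG 1 and 4.03 in dTAG 2. Both dTAG profiles were below both controls, by 0.01 within replicate 1 and by 0.83 within replicate 2, with an adjusted limma p of 0.9999.

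Several of the further replication genes lie beside a member. Tonsl is 74 kb from Recql4, Top2a, the topoisomerase that unlinks copied chromosomes, is 92.7 kb from Cdc6, and Rnaseh2a, a subunit of the enzyme that removes RNA from DNA, is 341 kb from Orc6. Rnaseh2a scored 4.30 and 3.66 in the controls and 4.61 and 3.03 after dTAG, where Orc6 scored 3.75 and 3.85 against 3.71 and 4.38.

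On the Cdc7 plateau, the neighbour Zfp644, at -317.6 kb, scored 1.47 and 0.92 in the controls and 0.89 and 0.14 after dTAG. Both dTAG profiles were below both controls there, as in 8.32% of all genes. The other protein-coding genes with midpoints within 500 kb of Cdc7 were Hfm1, Tgfbr3, Brdt, Ephx4 and Lpcat2b. Their groups overlapped, as at Cdc7 itself.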
